A study of Penicillium oxalicum with 15 samples.

Results

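Described here are the 7 endoglucanase identifiers of a panel of cellulase and xylanase genes, POX01166, POX01896, POX02740, POX05570, POX05571, POX06147 and POX07535. They were taken by identifier from the 9512 genes listed in the series, and all 7 were found in all 15 libraries. Their naming as endoglucanases was recalled from published quantitative PCR panels of this species. Endoglucanases cut cellulose chains at internal bonds and so open new chain ends. Cellobiohydrolases then release cellobiose from those ends and beta-glucosidases split cellobiose to glucose, so the 3 activities work together when a fungus degrades plant cell walls. Filamentous fungi such as Penicillium oxalicum carry several endoglucanase genes, and genes for secreted cellulases are generally low on easily used sugars and high on cellulose-rich material. None of the 9512 identifiers matched the 9964 genes of the RefSeq table, so enzyme family, genome position and sequence are not given here, and no role beyond that of an endoglucanase is assigned to any single member.

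The series measured RNA in mycelium from solid-state cultures, grown on moist particles without free liquid, in 5 groups of 3 libraries. Strain MuPOX03016 and strain MuKu70 were each grown on the carbon source WR, and the cultures of strain EU2101 had WR, WB plus AV (written WA in the growth field) or WB. The libraries of EU2101 on WR carry WB_RS in their titles, and the labels spell out none of these abbreviations. Each culture held 10 g of carbon source and stood for 5 days at 28 °C. The series' design text names the search for transcription factors of cellulase and hemicellulase genes as its purpose. The strain names point to the gene POX03016 and to Ku70, a protein of DNA end joining whose loss eases gene replacement in fungi, but the labels give neither the alleles, the number of clones nor the parent of either mutant. They do not say whether replicates were separate cultures either, so p-values measure the spread between these libraries, which may be technical.

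The estimated counts summed to 6609605 to 7335888 per mutant library and to 1782848 to 3414915 per EU2101 library, but this did not hold for every member. POX01166 had 5142 to 19332 reads in the mutant libraries, against 31625 to 49657 in EU2101 on WR. The smallest count of any member was 108 reads, for POX07535 in replicate 3 of EU2101 on WB. POX03016 had 17.9 to 19.9 FPKM (fragment counts scaled by gene length and library total) in MuPOX03016, against 87.4 to 139.0 FPKM in MuKu70 (log2 fold change -2.33, SE 0.19, adjusted p = 0.0012 in edgeR), and no library of the mutant overlapped. Replicate 1 of EU2101 on WB stood apart from its group, with r = 0.9 and 0.905 across genes with WB replicates 2 and 3 but 0.943 to 0.956 with the WB plus AV libraries. In the comparisons with WB, calls that change without it are given both ways. The fit of WR against WB plus AV also held this library and was not repeated without it alone. The gene lengths behind FPKM differ between the mutant and EU2101 files for 3 members, as described with the strain comparison, so levels set across these strains carry that difference.

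Endoglucanase transcripts were abundant on WR in EU2101. Together the 7 genes made up 0.987 ± 0.233% of all FPKM in MuPOX03016 and 0.443 ± 0.1% in MuKu70, both on WR (SD, n = 3 each). In EU2101 they made up 2.90 ± 0.63% on WR, 2.52 ± 0.54% on WB plus AV and 0.932 ± 0.315% on WB. POX01166 led in EU2101 on every carbon source, with 10407 ± 2281 FPKM on WR, 10229.5 ± 3172 on WB plus AV and 3367 ± 1848 on WB. By mean FPKM it was the fourth, the second and the thirteenth gene of the whole transcriptome on these sources. On WR the order by mean FPKM then ran POX05570, POX05571, POX06147, POX01896, POX07535 and POX02740. Only the step below POX01166 and the step above POX02740 separated neighbours whose library ranges did not overlap.

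**Figure D1:**
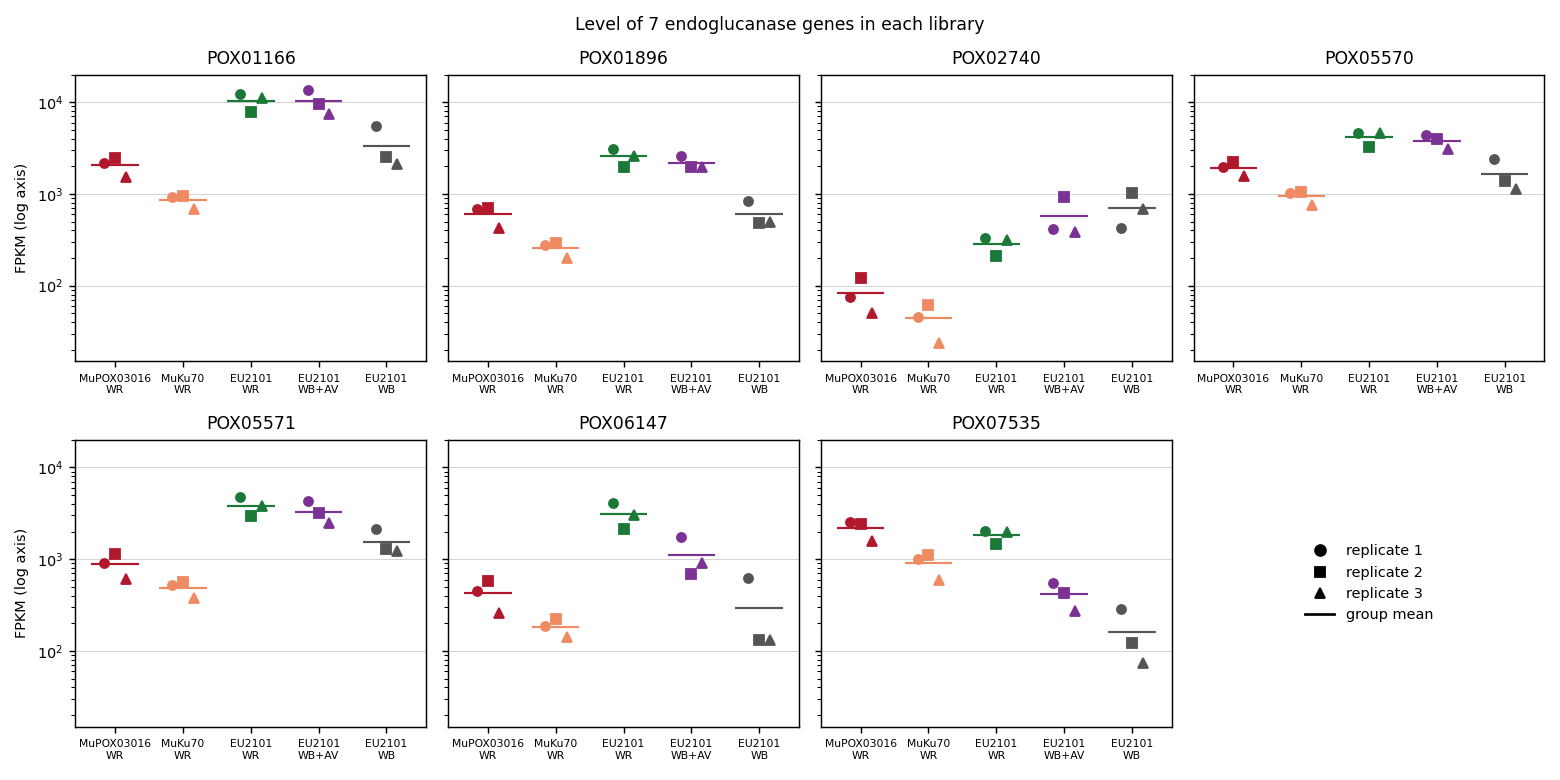
FPKM on a log axis for each of the 7 endoglucanase genes, with 1 point per library, marker shapes for replicate numbers and a line for the mean of the 3 libraries of a group. In EU2101, 6 genes have higher means on WR than on WB, while POX02740 averages 285 FPKM on WR and 707 FPKM on WB.

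The order of the members differed between the carbon sources and between the mutant and EU2101 libraries. POX02740 held the lowest place on WR, with 284.9 ± 64.6 FPKM, the next to lowest on WB plus AV, with 574.6 ± 303.7 FPKM, and the fourth on WB, with 707 ± 295 FPKM. There it stood above POX01896, POX06147 and POX07535 by mean, although its range overlapped those of POX01896 and POX06147. It held the fourth place in WB replicates 2 and 3 and the sixth in replicate 1. The WB mean of POX06147, 297 FPKM, rested on replicate 1 as well, and was 132 FPKM over replicates 2 and 3. In the mutants POX07535, POX01166 and POX05570 shared the top 3 places with overlapping ranges: 2175 ± 514, 2045 ± 484 and 1935 ± 329 FPKM in MuPOX03016, and 903.9 ± 268.6, 854.3 ± 139.9 and 942.6 ± 157.4 FPKM in MuKu70 (SD, n = 3 each).

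Expressed as a share of the summed FPKM of the 7 genes, POX01166 supplied 25.1 ± 0.47% in MuPOX03016 and 23.4 ± 1.23% in MuKu70. In EU2101 it supplied 39.8 ± 0.33% on WR, 46.9 ± 2.35% on WB plus AV and 39.1 ± 5.13% on WB. The share of POX07535 was larger in the mutants than in EU2101, with 26.7 ± 1.86% in MuPOX03016, 24.3 ± 2.54% in MuKu70 and 7.11 ± 0.48% in EU2101 on WR. It held 1.89 ± 0.21% on WB plus AV and 1.79 ± 0.54% on WB. The share of POX02740 was 1.09 ± 0.05% on WR, 2.76 ± 1.53% on WB plus AV and 9.92 ± 5.77% on WB. The WB value was spread widely, because POX02740 supplied 14.7% and 11.6% in replicates 2 and 3 but 3.5% in replicate 1.

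**Figure D2:**
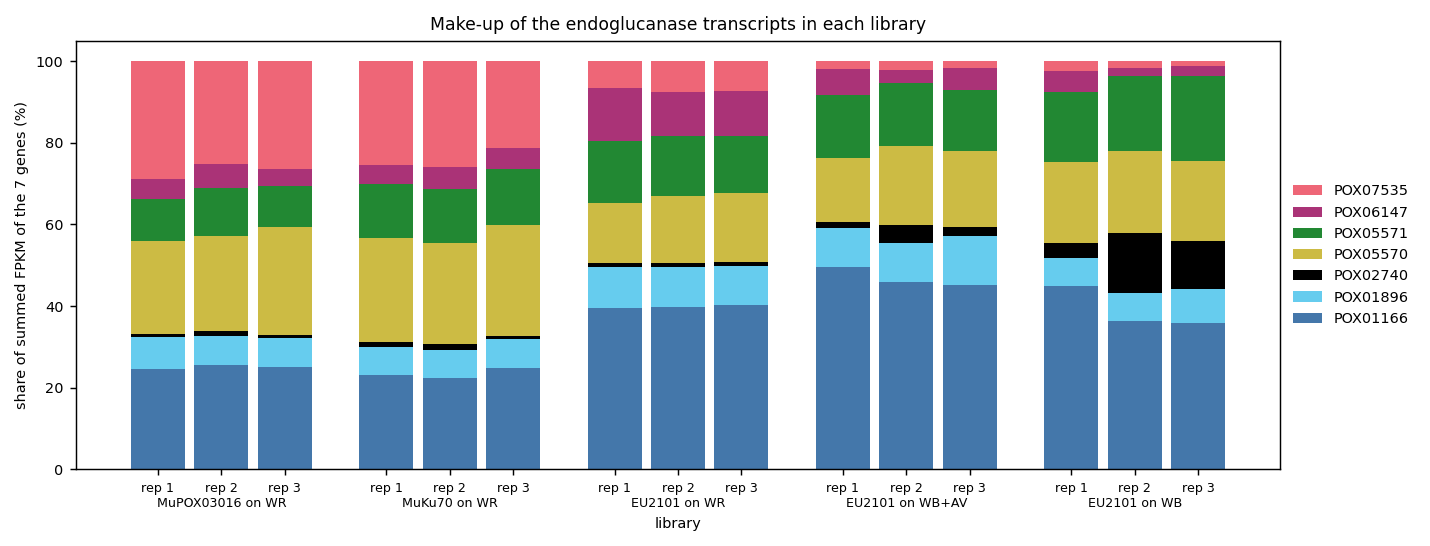
Stacked bars of the share of the summed FPKM that each of the 7 endoglucanase genes supplies in each of the 15 libraries. POX07535 takes 21.3 to 28.8% in the mutant libraries and 6.6 to 7.5% in EU2101 on WR, and POX02740 takes its highest shares, 14.7% and 11.6%, in WB replicates 2 and 3.

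The title of the series names inducing carbon sources, and WR against WB in EU2101 gave the largest endoglucanase changes among them. In EU2101, 6 of the 7 genes rose on WR and POX02740 did not pass, with edgeR's quasi-likelihood test and an adjusted p under 0.05. Over all 8079 genes tested, 16.3% were called in either direction and 8.66% were called higher. The median log2 fold change was 1.71 over the members and -0.03 over all genes. POX07535 and POX06147 rose most, POX01896 came next, and POX01166, POX05570 and POX05571 rose by smaller and similar amounts. In RNA from whole mycelium, more cells that express a gene and more RNA per cell cannot be told apart.

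POX07535 had 2050.3, 1483 and 1996 FPKM in replicates 1, 2 and 3 on WR, against 286.7, 120.8 and 74.5 FPKM on WB. Its level rose 12.3-fold (log2 fold change 3.62, SE 0.45, adjusted p = 0.00131). POX06147 had 4047, 2155 and 3028 FPKM on WR, against 628.2, 131 and 132.7 FPKM on WB. For both genes the lowest WR library lay above the highest WB library, which was replicate 1 each time. The rise of POX06147 was 11.4-fold (log2 fold change 3.51, SE 0.61, adjusted p = 0.0058). POX01896 had 3122, 1956 and 2613 FPKM on WR, against 837.4, 485.2 and 488.2 FPKM on WB, a rise of 4.40-fold (log2 fold change 2.14, SE 0.31, adjusted p = 0.00249).

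POX01166, the most abundant member, had 12351, 7895 and 10976 FPKM on WR, against 5487, 2513 and 2100.3 FPKM on WB. It rose 3.26-fold (log2 fold change 1.71, SE 0.40, adjusted p = 0.0191). POX05570 lay between 3242 and 4569.6 FPKM on WR, against 1142 to 2419 FPKM on WB, and rose 2.62-fold (adjusted p = 0.0157). POX05571 lay between 2928 and 4762 FPKM on WR, against 1227 to 2108 FPKM on WB, and rose 2.58-fold (adjusted p = 0.0203). The groups of all 7 members did not overlap in FPKM, POX02740 being the one with the lower WR values, a separation that 34.5% of all genes showed.

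POX01896, POX06147 and POX07535 kept their calls whichever of the 6 WR and WB libraries was omitted. Those of POX01166, POX05570 and POX05571 were lost without WB replicate 2, WB replicate 3, WR replicate 1 or WR replicate 3, with adjusted p between 0.0646 and 0.0871, which left 3 members called in each of these fits. Without WB replicate 1 all 6 passed, and POX06147, POX07535, POX01896 and POX01166 then had log2 fold changes of 4.46, 4.15, 2.30 and 2.08. In the remaining panel 5 of 6 genes rose, and the beta-glucosidase gene POX06835 had a log2 fold change of -0.77 (adjusted p = 0.248). POX06783, one of the xylanase genes of that panel, rose most (log2 fold change 4.49, adjusted p = 0.00577). Without WB replicate 1 these were -1.13 for POX06835 (adjusted p = 0.0153), which then fell, and 5.81 for POX06783 (adjusted p = 0.000134).

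**Figure D3:**
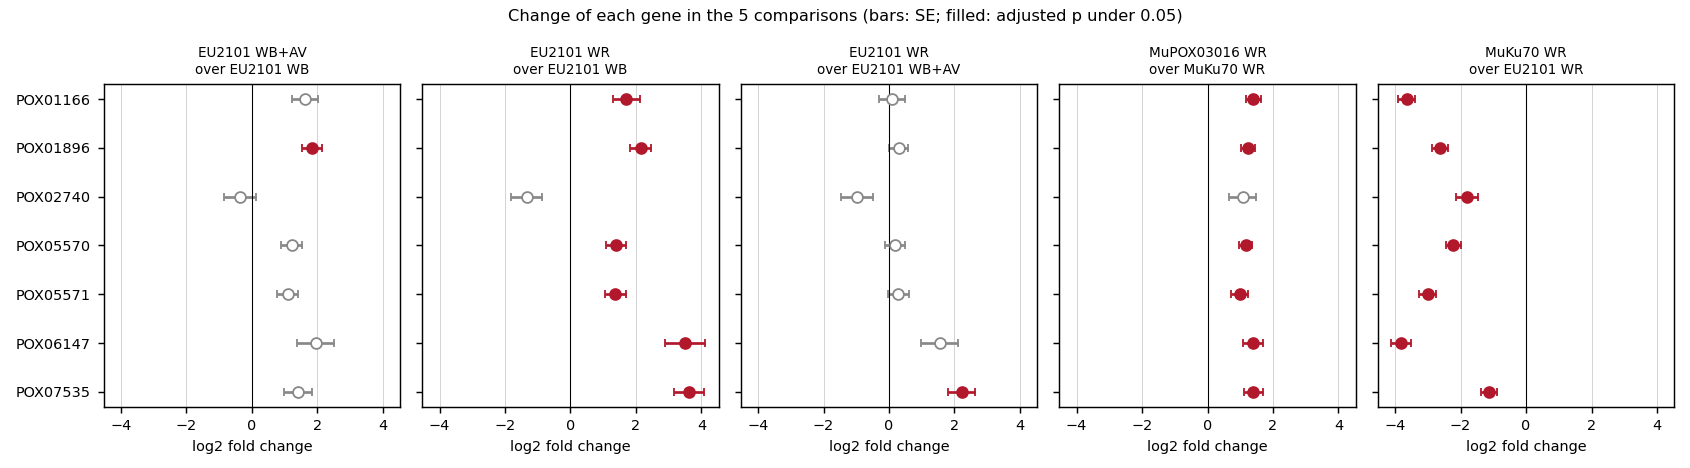
Log2 fold change of each endoglucanase gene in the 5 comparisons, with bars for the standard error and filled points for an adjusted p under 0.05 in edgeR. On WR against WB 6 points are filled and lie between 1.37 and 3.62, and POX02740 lies at -1.34 with an open point.

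On WB plus AV against WB POX01896 rose, and the other 6 genes did not pass. POX01896 had 2612, 1974 and 1957 FPKM on WB plus AV, against 837.4, 485.2 and 488.2 FPKM on WB (log2 fold change 1.84, SE 0.30, adjusted p = 0.0256). All 3 libraries on WB plus AV lay above all 3 on WB. Across all genes 1.18% were called, and 0.681% were called higher. The calls were 55 higher and 40 lower, against 48 and 66 when libraries were scaled by their totals alone. The members' median log2 fold change was 1.40, against 0.01 over all genes.

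Of the other members, POX01166, POX05570, POX05571, POX06147 and POX07535 had log2 fold changes of 1.62, 1.21, 1.09, 1.95 and 1.40 with adjusted p of 0.0813 to 0.124. Their unadjusted p lay between 0.0023 and 0.00726. POX06147 had 1740.3, 695.6 and 898.1 FPKM on WB plus AV, against 628.2, 131 and 132.7 FPKM on WB. POX01166 had 13708, 9484 and 7497 FPKM on WB plus AV, against 5487, 2513 and 2100.3 FPKM on WB. For both genes WB replicate 1 came closest to the WB plus AV libraries without reaching them. The FPKM ranges of 5 members did not overlap, all higher on WB plus AV, against 15.7% of all genes without overlap and 5.79% without overlap and higher. POX02740 and POX07535 overlapped.

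Same-numbered libraries of these groups deviated together, and with the replicate number as a block 6 members rose, all but POX02740, with adjusted p of 0.00894 to 0.0458. Without WB replicate 1 the same 6 genes passed, with log2 fold changes of 1.24 to 2.90 and adjusted p of 0.00168 to 0.0212. Without WB replicate 2, WB replicate 3 or any single WB plus AV library, no member passed in edgeR, although 6 had an unadjusted p under 0.05 each time. POX01896 then had adjusted p of 0.0541 to 0.132, and 0.118 when the third group was left out of the fit. The DESeq2 test on all libraries called 6 members higher. In the remaining panel 1 of 6 genes rose, the cellobiohydrolase gene POX04786 (log2 fold change 1.94, adjusted p = 0.0433). Without WB replicate 1, 4 of the 6 rose, POX05587, POX04786, POX06783 and POX08484.

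WR and WB plus AV, both with high endoglucanase levels, differed in POX07535. It had 2050.3, 1483 and 1996 FPKM on WR, against 547.0, 423.3 and 274.2 FPKM on WB plus AV, and rose 4.66-fold (log2 fold change 2.22, SE 0.42, adjusted p = 0.0162). Every WR library lay above every WB plus AV library. With the replicate number as a block POX07535 rose as well (log2 fold change 2.3, adjusted p = 0.00256 in edgeR). Across all genes 5.09% were called, and 3.24% were called higher. POX07535 lost its call without WB plus AV replicate 2 or 3 or WR replicate 1 or 3, with adjusted p of 0.0566 to 0.077, so that edgeR called no member in these fits while 1 or 2 had an unadjusted p under 0.05.

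No other member passed between these 2 sources. POX01166, POX01896, POX05570 and POX05571 had log2 fold changes of 0.09, 0.30, 0.18 and 0.28 with SE of 0.29 to 0.39, and their ranges overlapped. POX06147 had 4047, 2155 and 3028 FPKM on WR, against 1740.3, 695.6 and 898.1 FPKM on WB plus AV, which did not overlap (log2 fold change 1.55, SE 0.56, adjusted p = 0.176). It passed with the replicate number as a block (log2 fold change 1.62, adjusted p = 0.0106) and when the third group was left out of the fit (adjusted p = 0.0363), while its adjusted p reached 0.45 with a library left out. The groups of 3 members, POX02740, POX06147 and POX07535, did not overlap, as was the case for 29.5% of all genes. In the remaining panel 2 of 6 genes rose, the xylanase genes POX00063 and POX08484.

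By its mean FPKM POX02740 ran against the other members in EU2101, although it passed the test in none of the 3 carbon source comparisons with all libraries in the fit. It had 330.8, 211 and 313 FPKM in replicates 1, 2 and 3 on WR, 419.1, 924.5 and 380.1 FPKM on WB plus AV, and 426.6, 1015 and 677.8 FPKM on WB. The WR libraries lay below all libraries of the other 2 sources, which overlapped each other. Its log2 fold change was -1.34 on WR against WB (SE 0.48, adjusted p = 0.0856), -0.98 on WR against WB plus AV (SE 0.48, adjusted p = 0.314) and -0.36 on WB plus AV against WB (SE 0.48, adjusted p = 0.726). On WR against WB it fell past the threshold without WB replicate 1 (log2 fold change -1.67, adjusted p = 0.0128) and in the DESeq2 test (adjusted p = 0.0333). Across all left-out libraries its adjusted p ran from 0.0128 to 0.296 and across the other fits from 0.0333 to 0.0893. On WB plus AV against WB its log2 fold change was 0.08 without WB replicate 2 and -0.94 without WB plus AV replicate 2. On WR against WB plus AV it was -0.39 without WB plus AV replicate 2.

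The replicates also split differently for this gene. In the WB group replicate 1 was the highest for the other 6 members and the lowest for POX02740. In the WB plus AV group replicate 1 was again the highest for 6 members, while POX02740 was highest in replicate 2. On WR POX02740 followed the others, and replicate 2 was the lowest for all 7 members. The ratio of the highest to the lowest library for POX02740 was 1.57 on WR, 2.43 on WB plus AV and 2.38 on WB.

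Ratios between members within a library do not depend on sequencing depth, and they showed how the members parted. POX07535 had 6.20, 7.03 and 6.38 times the FPKM of POX02740 on WR, 1.31, 0.458 and 0.721 times on WB plus AV, and 0.672, 0.119 and 0.110 times on WB. POX01166 had 35.1 to 37.4 times the FPKM of POX02740 on WR, 10.3 to 32.7 times on WB plus AV and 2.48 to 12.9 times on WB. On WR the ratios to POX02740 varied little between libraries, and on WB replicate 1 was the highest for each of the 6 genes. Each of the 6 ratios was higher on WR than on either other source with no overlap between libraries. The 6 ratios share POX02740 and so are not independent, and ratios of other genes were not computed. POX02740 itself was lower in every WR library than in any library of the other sources, which alone raises these ratios. The FPKM of POX01166, POX01896, POX05570 and POX05571 overlapped between WR and WB plus AV.

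**Figure D4:**
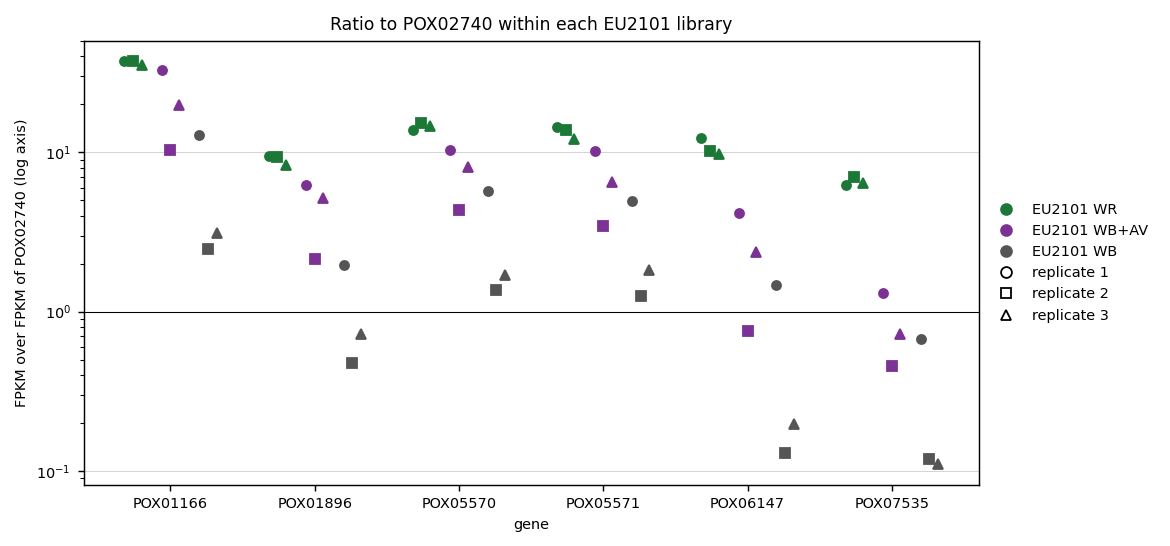
FPKM of the other 6 endoglucanase genes divided by the FPKM of POX02740 in the same EU2101 library, on a log axis, by carbon source and replicate. The WR points lie above all WB plus AV and WB points for each gene, and for POX07535 they lie at 6.20 to 7.03 against 0.110 to 0.672 on WB.

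All 21 ratios between 2 members were tested for a difference among the 3 carbon sources with an exact permutation test of the F statistic over the 9 EU2101 libraries. The smallest p this design allows is 0.00357, and p-values were adjusted over the 21 pairs. The log2 ratio differed for 12 pairs at an adjusted p under 0.05, and 17 had an unadjusted p under 0.05. The 21 pairs are built from 7 genes and are not independent. Ratios of other genes were not computed, so these counts have no share over all pairs beside them. Of single genes, 34.5% did not overlap between WR and WB. Of the 6 pairs with POX02740, those with POX01896 (exact p = 0.00357, adjusted p = 0.025), POX07535 (exact p = 0.00714, adjusted p = 0.025) and POX06147 (exact p = 0.0179, adjusted p = 0.0312) passed. The pairs with POX01166, POX05570 and POX05571 had adjusted p = 0.0516 each in the exact test.

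The other 9 passing pairs did not involve POX02740. Of these, 7 set POX06147 or POX07535 against POX01166, POX01896, POX05570 or POX05571, the exception among such pairs being POX01896 with POX06147 (exact p = 0.0536, adjusted p = 0.0625). POX05571 had 1.91 to 2.32 times the FPKM of POX07535 on WR, 7.47 to 9.07 times on WB plus AV and 7.35 to 16.5 times on WB. The 2 remaining passing pairs were POX01166 with POX05571 and POX01896 with POX05570. POX05570 and POX05571 kept a ratio of 0.958 to 1.2 on WR, 1.02 to 1.27 on WB plus AV and 0.930 to 1.15 on WB (exact p = 0.504, adjusted p = 0.504). POX06147 and POX07535 did not pass either, with mean log2 ratios of 0.71 ± 0.24 on WR, 1.37 ± 0.56 on WB plus AV and 0.69 ± 0.52 on WB (exact p = 0.236, adjusted p = 0.247).

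These pair results depended on single libraries. Without WB replicate 1, 18 pairs passed, including all 6 with POX02740 (adjusted p of 0.00937 to 0.0115 in the exact permutation test). Without WB replicate 2 or WR replicate 1 no pair passed, although 13 pairs in the first case and 12 in the second had an unadjusted p under 0.05, and leaving out any of the other 6 libraries left 8 to 13. With labels permuted only within replicate numbers, where the smallest exact p is 0.0278, no pair passed and the smallest adjusted p was 0.053, while 11 pairs had an unadjusted p under 0.05. With that smallest p, many of the 21 pairs would have to reach it for any to pass.

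The strain pair MuPOX03016 and MuKu70, both on WR, differed in the level of POX03016. The labels give neither alleles, number of clones nor parent, so an effect of POX03016 and another strain difference cannot be told apart. In MuPOX03016 6 of the 7 endoglucanase genes rose and POX02740 did not pass. Across all 7931 genes tested 18.4% were called, and 10.8% were called higher. The calls were 857 higher and 599 lower, against 558 and 1140 with scaling by library totals alone, under which the median of all genes stood at -0.14 and 5 members were called. The members moved by similar amounts, with log2 fold changes of 0.99 to 1.40 and a median of 1.23, against 0.00 over all genes.

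POX01166 had 2154, 2465 and 1515 FPKM in MuPOX03016, against 925, 944.7 and 693.1 FPKM in MuKu70, and rose 2.63-fold (log2 fold change 1.40, SE 0.23, adjusted p = 0.00791). POX07535 had 2518, 2423 and 1584 FPKM in MuPOX03016, against 1013, 1101 and 597.9 FPKM in MuKu70, and rose 2.62-fold (SE 0.29 on the log2 scale, adjusted p = 0.0175). POX06147 had 449.4, 581.3 and 256.2 FPKM in MuPOX03016, against 186.5, 223.9 and 142 FPKM in MuKu70, and rose 2.60-fold (SE 0.30 on the log2 scale, adjusted p = 0.0208). For each of these genes replicate 3 was the lowest library of both strains, and the lowest MuPOX03016 library still lay above the highest MuKu70 library. Replicate 3 was the lowest for all 7 members in both strains.

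POX01896 lay between 421.2 and 698.2 FPKM in MuPOX03016, against 200.8 to 291.7 FPKM in MuKu70, and rose 2.34-fold (adjusted p = 0.011). POX05570 lay between 1584 and 2237 FPKM in MuPOX03016, against 761.8 to 1049 FPKM in MuKu70, and rose 2.24-fold (adjusted p = 0.00847). POX05571 lay between 606.7 and 1133 FPKM in MuPOX03016, against 381.3 to 558.6 FPKM in MuKu70, and rose 1.98-fold (adjusted p = 0.0392). These 3 genes did not overlap between the strains either. POX02740 had 74.7, 121.6 and 50.5 FPKM in MuPOX03016, against 45.6, 62.1 and 24.0 FPKM in MuKu70, which overlapped (log2 fold change 1.07, SE 0.41, adjusted p = 0.119). In all, 6 members did not overlap, all with higher values in MuPOX03016, against 44.1% of all genes without overlap and 13% without overlap and higher.

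POX01166 and POX05570 kept their calls whichever of the 6 libraries was omitted. POX01896 was lost without MuKu70 replicate 1 (adjusted p = 0.0564), POX07535 without replicate 1 of either strain (adjusted p = 0.0629 without that of MuKu70 and 0.0518 without that of MuPOX03016), and POX06147 without MuKu70 replicate 1 or 3 or MuPOX03016 replicate 1 (adjusted p = 0.0595 to 0.0893). Among the fits with a library left out, POX05571 passed only without MuPOX03016 replicate 3. It did not pass in edgeR with scaling by library totals alone (adjusted p = 0.0557). Nor did it pass in limma on the log2 scale with FPKM + 1 (adjusted p = 0.0669) or FPKM + 5 (adjusted p = 0.0661). The count of members called was thus 2 without MuKu70 replicate 1 and 3 without MuPOX03016 replicate 1. In the remaining panel 3 of 6 genes rose, POX04786, POX06783 and POX08484.

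The make-up of the endoglucanase transcripts was compared between these strains as well. Of the 21 ratios between members 5 had library ranges that did not overlap, and with 3 libraries against 3 no exact test of a ratio can go below p = 0.1. Ratios of other genes were not computed, so this count has no share over all pairs beside it. Of single genes, 44.1% did not overlap between these strains. In 4 of the 5 ratios the level of POX05571 relative to its partner, POX01166, POX01896, POX06147 or POX07535, was lower in MuPOX03016 than in MuKu70. These 4 share POX05571 and are not independent. Ratios of counts, which use no gene length, separated the strains for 4 of the 5 pairs. For POX01896 with POX05571 they overlapped, at 1.24 to 1.6 in MuPOX03016 and 1.18 to 1.27 in MuKu70, and the length behind POX01896 differed between the strains. The count ratios of POX01896 with POX01166 and with POX07535 did not overlap between the strains, while their FPKM ratios did. POX01166 had 2.18 to 2.50 times the FPKM of POX05571 in MuPOX03016 and 1.69 to 1.82 times in MuKu70. The share of POX05571 in the summed FPKM was 10.7 ± 0.90% in MuPOX03016 and 13.3 ± 0.24% in MuKu70 (SD, n = 3 each).

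MuKu70 against EU2101, both on WR, compares 2 strain backgrounds whose relation the labels do not give. Strain went together with library total, share of fractional counts and, for some genes, the length behind FPKM. A strain effect and a difference in how the libraries were made or processed cannot be told apart. All 7 endoglucanase genes fell in MuKu70, in a comparison in which 62.8% of the 8287 genes tested were called and 31.3% were called lower. The members' median log2 fold change was -2.62, against -0.01 over all genes. POX06147 had 186.5, 223.9 and 142 FPKM in MuKu70, against 4047, 2155 and 3028 FPKM in EU2101 (log2 fold change -3.82, SE 0.30, adjusted p = 1.51e-05). POX01166 had 925, 944.7 and 693.1 FPKM in MuKu70, against 12351, 7895 and 10976 FPKM in EU2101 (log2 fold change -3.65, SE 0.27, adjusted p = 1.27e-05). These were the largest falls among the members. The groups of all 7 members lay apart with the lower values in MuKu70, while 65.1% of all genes did not overlap and 37.8% did not overlap and were lower.

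POX07535 fell least, with 1013, 1101 and 597.9 FPKM in MuKu70, against 2050.3, 1483 and 1996 FPKM in EU2101 (log2 fold change -1.14, SE 0.25, adjusted p = 0.00498). The log2 fold changes of the other members were -3.00 for POX05571, -2.62 for POX01896, -2.22 for POX05570 and -1.81 for POX02740, with adjusted p of 2.77e-05 to 0.0017. All 7 falls were called whichever of the 6 libraries was omitted, and in the 8 other fits run. In the remaining panel 5 of 6 genes fell in MuKu70 and the beta-glucosidase gene POX06835 rose (log2 fold change 2.39, adjusted p = 2.16e-05). Between the 4 members whose length behind the FPKM was the same apart from a common shift, the 6 ratios did not overlap between the strains. POX05570, for example, had 1.88 to 2 times the FPKM of POX05571 in MuKu70 and 0.958 to 1.2 times in EU2101 on WR. The 6 ratios share 4 genes and are not independent. Ratios of other genes were not computed, and 65.1% of single genes did not overlap between these strains.

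The deposited values of MuKu70 and EU2101 rest on different gene lengths for 3 of the 7 members. For the gene length that count and FPKM imply, a common shift of mutant minus EU2101 libraries was taken over genes without a large length difference. Its median was -72 bp, and 29.6% of all 5911 genes compared lay more than 20 bp from that shift. POX01896 had a length of 2631 to 3107 bp in the mutant libraries and 1893 to 1910 bp in EU2101. POX02740 had 1530 to 1755 bp in the mutant libraries and 896 to 912 bp in EU2101, and POX06147 had 1328 to 1384 bp and 1158 to 1174 bp. These lengths varied among the mutant libraries, and for POX01896 they were 2631 to 2833 bp in MuPOX03016 and 2967 to 3107 bp in MuKu70, without overlap.

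**Figure D5:**
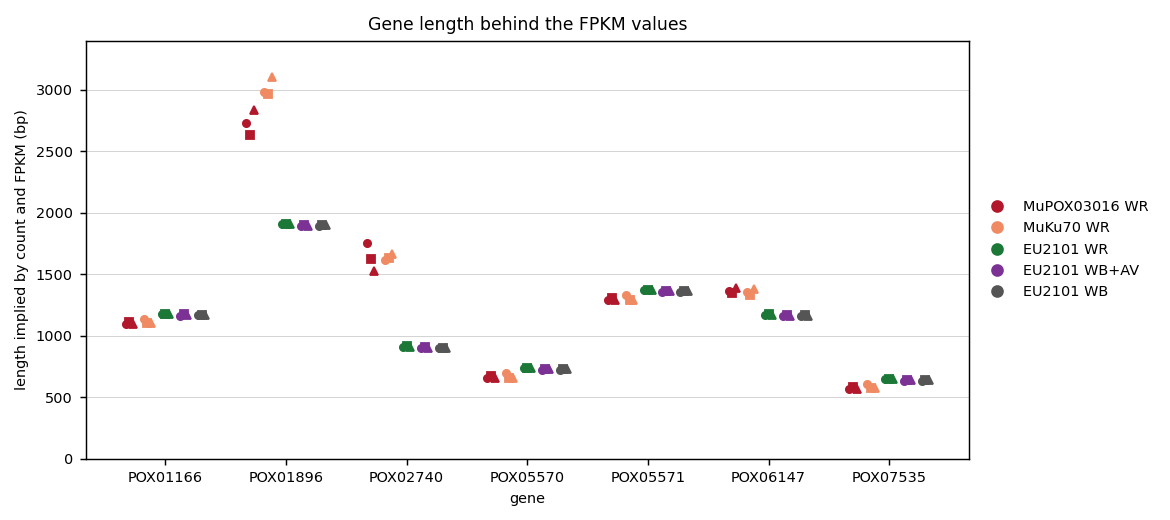
Gene length in base pairs implied by expected count, FPKM and library total for each endoglucanase gene in each of the 15 libraries. POX01896, POX02740 and POX06147 are longer in the mutant libraries than in EU2101, and the other 4 genes are shorter by close to the common shift.

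With the lengths as offsets in edgeR, the fall in MuKu70 against EU2101 was larger for POX02740, at a log2 fold change of -2.59, for POX01896, at -3.22, and for POX06147, at -3.96. For POX07535 it was -0.92 (adjusted p = 0.0134). In MuPOX03016 against MuKu70 the same offsets moved POX01896 to 1.35 on the log2 scale (adjusted p = 0.0119) in place of 1.23, and 6 members were called again. All 105 member counts were exactly whole as deposited. By contrast, 13.4 to 14.2% of the listed genes had fractional counts in the mutant libraries, and 0.17 to 0.31% in the EU2101 libraries. The files do not state whether counting used strand, so reads from an overlapping neighbour, if POX05570 and POX05571 or any other member has one, cannot be told apart.

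The genes whose pattern was most like that of the members were found over the 9 EU2101 libraries from log2(FPKM + 1) of 8072 other genes. The mean standardised profile of the 6 members other than POX02740 was most like POX06783 (Pearson r = 0.993) and POX08897 (r = 0.991). POX06783, one of the xylanase genes of the panel, had 3383 to 5366 FPKM on WR, 1005 to 3008 on WB plus AV and 52.1 to 494.4 on WB. The cellobiohydrolase gene POX04786 was seventh by this measure (r = 0.977). POX02740 was most like POX08794 (r = 0.954) and POX06002 (r = 0.953), and POX08794 had 58.6 to 96.9 FPKM on WR, 103.5 to 264.4 on WB plus AV and 184.7 to 435.7 on WB. The beta-glucosidase gene POX06835 had r = 0.740 with POX02740, which put it at place 450 among the 8072 genes. Without WB replicate 1, over 8 libraries, POX06783 and POX08897 had r = 0.993 and 0.994, POX04786 r = 0.982, POX08794 and POX06002 r = 0.967 and 0.970, and POX06835 r = 0.803. Their places were then 4 for POX06783, 1 for POX08897, 9 for POX04786, 2 for POX08794, 1 for POX06002 and 367 for POX06835. These correlations describe libraries that share strain and groups but not depth, and no test was made of them. Library totals went with carbon source, at 3372763 to 3414915 on WR, 1863613 to 3152409 on WB plus AV and 1782848 to 2417284 on WB.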

How the data were processed

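Total RNA of mycelium from solid-state cultures was sequenced on an Illumina instrument, per the labels' protocols, in 5 groups of 3 libraries. Each deposited file gives 1 library, and the authors listed an expected count and an FPKM value for each gene detected, per the file headers. FPKM was scaled by gene length and library total before it was deposited. The submitters' processing notes name RSEM 1.2.12, DESeq2, Bowtie2 2.1.0 and BWA 0.7.10-r789, without roles. The genome build is not given in the sources used here, and neither is the use of strand in counting. The 7 members and all lists were chosen with earlier results of these data known.

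Rounding turned the expected counts into whole numbers, and a gene not listed in a library was taken as a count of 0. Genes were kept by edgeR's filter with a minimum count of 10. The quasi-likelihood F test of edgeR 4.0.16 in R 4.3.3, with TMM scaling, was fitted over all genes that passed. The 9 EU2101 libraries shared 1 fit for the carbon sources, and each strain comparison used its 6 libraries. P-values were adjusted over all genes tested by the Benjamini-Hochberg method, with a threshold of 0.05, and the standard error of a log2 fold change was taken as its size over the square root of F. All 7 members passed the filter in each fit. Ratios between members were compared with exact permutation tests coded with NumPy 2.4.6, two-sided by the form of the F statistic, over 1680 arrangements of the 9 libraries. The scripts were tested on simulated data.

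Alternatives were DESeq2 1.42.0, limma 3.58.1 on log2(FPKM + 1) and log2(FPKM + 5), other scalings, no filter, a replicate block, gene length offsets and only the groups compared. Each library of the groups compared was also left out. No 2 libraries of 1 group agreed within counting noise (chi-square per degree of freedom of 8 to 56.5), which does not show that they came from separate cultures. Each was counted as 1 sample. The deviations of same-numbered libraries from their group means correlated at r = 0.39 to 0.55 between WB plus AV and WB. Between WR and WB plus AV they correlated at 0.20 to 0.39. The reported values come from fits without a block. For these 2 comparisons, calls that changed with the replicate number as a block, which pairs same-numbered libraries, are given both ways. This pairing comes from the data and not from the labels. Beside the 7 members, the text names POX03016, the 6 other panel genes and the genes most like the members in pattern.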

Additional observations from a re-analysis of the deposited data

How the results depend on the processing

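The members called on WB plus AV against WB, 1 as reported, were 6 with DESeq2, 6 with the replicate block, 0 with only the 2 groups and 0 to 6 with a library left out. The genes called there, 95 as reported, were 547, 510, 3 and 4 to 1769 under the same changes. On WR against WB, 3 to 7 members and 548 to 2962 genes were called with a library left out, and the replicate block gave 2291 genes. On WR against WB plus AV the block and the fit of only the 2 groups each called 2 members, and 0 to 1 were called with a library left out. The genes called there, 411 as reported, were 667 with DESeq2, 873 with the block, 733 with the 2 groups and 155 to 393 with a library left out. In MuPOX03016 against MuKu70, 2 to 6 members and 542 to 1270 genes were called with a library left out, against 1456 as reported. There the same-numbered libraries did not pair by the check (r = 0.01 to 0.40), nor in WR against WB (0.08 to 0.26) or MuKu70 against EU2101 (0.02 to 0.13). With the block POX02740 passed in MuPOX03016 (log2 fold change 1.06, adjusted p = 0.00106), and no other member's call changed in these 3 comparisons. Of 21 pair ratios, 12 passed as reported, 0 with the block and 0 to 18 with a library left out. The log2 fold change of POX02740 on WB plus AV against WB was -0.94 to 0.08 with a library left out, positive without WB replicate 2. That of POX01166 on WR against WB plus AV was -0.1 to 0.32, negative when WR replicate 1 (-0.06) or WB plus AV replicate 3 (-0.1) was omitted. Of 504 recomputed log2 fold changes of the members and POX03016, 444 kept direction and side of the threshold, 36 lost the call, 21 gained it and 3 turned. Length offsets and count ratios in MuPOX03016 against MuKu70, and panel genes, WB places and correlations without WB replicate 1, were added after seeing the data. The cause of these changes was not tested. EU2101 libraries hold fewer reads than the mutant libraries, and POX07535 on WB rests on 108 to 440 reads.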
